A study of Homo sapiens with 9 samples.

Results

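The nuclear respiratory chain subunits examined here are 85 protein-coding genes, out of 19941 protein-coding genes and 61832 rows in the count table. They were chosen by symbol alone, as genes named in the NDUFA, NDUFB, NDUFC, NDUFS and NDUFV, SDHA to SDHD, UQCR, COX4 to COX8 and ATP5F, ATP5M and ATP5P series. By symbol, 37 belong to complex I, 4 to complex II, 9 to complex III, 16 to complex IV and 19 to complex V, and no measured value entered the choice. NDUFA4 was counted under complex I by its symbol, although it is known as a subunit of complex IV. UQCRHL is a near-identical copy of UQCRH, and ATP5MF-PTCD1 is a read-through gene that shares exons with ATP5MF, so the counts of these 2 members are uncertain. Of the 85 genes, 79 passed a filter on low counts that kept 20402 features.

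Complexes I and II pass electrons from NADH and from succinate to ubiquinone, complex III passes them on to cytochrome c, and complex IV passes them to oxygen. Complexes I, III and IV pump protons across the inner mitochondrial membrane, and complex V uses the proton gradient to make ATP. Most of the subunits are encoded in the nucleus and imported, the core membrane subunits of complexes I, III, IV and V are encoded in mitochondrial DNA, and complex II is wholly nuclear. Transcription factors NRF1, GABPA and YY1 are known to bind promoters of many nuclear subunit genes.

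The cells were HCT116, a long-established line from a human colorectal carcinoma, and the genotype label reads WT in every library. Under the labels, 3 libraries carried a hairpin directed at SLC6A3, the dopamine transporter gene, with DMSO (shSLC6A3 DMSO). Another 3 carried a control hairpin with a treatment abbreviated VXN (shCTRL VXN), and the last 3 carried the control hairpin with DMSO (shCTRL DMSO). The labels do not spell out VXN (the title of replicate 3 reads VNN), and they do not say whether the hairpin lines were clones or whether replicates were separate cultures, so the p-values rest on a spread between libraries that may be technical only. Library totals ran between 30251364 and 60215785 counts. SLC6A3 itself had between 0 and 6 counts per library, so it gives no check of the knockdown. Of 6 epithelial markers, EPCAM, CDH1, KRT8, KRT18 and CDX2 were present at 16.1 to 2020 CPM (counts scaled to 1e+06 per library) and VIL1 was at 0 to 0.109 CPM. The defining leukocyte and fibroblast markers PTPRC, CD3E, COL1A2 and DCN were at 0 to 0.0655 CPM, although COL1A1 reached 47.5 CPM and CD68 6.72 CPM.

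The authors also deposited tables of their own DESeq2 comparisons, one named shCTRL V against shCTRL D and one named shDAT D against shCTRL D. The columns behind these tables did not follow the labels. A DESeq2 rerun on 3 trios of libraries gave all 38907 p-values of each table within a tolerance of 5e-06, while the labelled groups gave 0 of them in the first table and 547 in the second. The shCTRL V trio is shCTRL DMSO replicate 3, then shSLC6A3 DMSO replicate 1, then shCTRL VXN replicate 3. The shDAT D trio is shCTRL DMSO replicate 1, then its replicate 2, then shCTRL VXN replicate 1. The shCTRL D trio is shSLC6A3 DMSO replicate 2, then its replicate 3, then shCTRL VXN replicate 2. Which of the groupings matches the cells cannot be told from the files, so results under both are given, and the table groups are called the shCTRL V, shDAT D and shCTRL D columns. Each labelled group holds 1 of the shCTRL V columns. Within a table group, libraries are given in the order of this paragraph.

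RefSeq promoter windows (GRCh38.p14, 250 bases before to 50 bases after the start) were at hand for 68 of the 85 genes. The NRF1 core CGCATGCGC lay in 9 of these 68 windows (13.2%), against 2.8% of 15842 coding-gene windows of the same length, searching both strands. Its looser form CGCNNGCGC, which every core match also satisfies, lay in 26 (38.2%, against 23.2%). The ETS core CCGGAAG, the letters bound by GABPA, lay in 20 (29.4%, against 14.2%), and the YY1 core AAGATGGC in 11 (16.2%, against 3.9%). Any of the 4 lay in 44 windows (64.7%, against 35.1%).

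Shown first is the 250-base stretch before the RefSeq start of NDUFS7, because it had the most negative fold change in complex I. It lies on the plus strand at chr19:1383657-1383906, with a match to the NRF1 core in capitals that begins 74 bases before that start. In GENCODE the gene begins at 1383527, so there the whole stretch lies inside the gene.
NDUFS7: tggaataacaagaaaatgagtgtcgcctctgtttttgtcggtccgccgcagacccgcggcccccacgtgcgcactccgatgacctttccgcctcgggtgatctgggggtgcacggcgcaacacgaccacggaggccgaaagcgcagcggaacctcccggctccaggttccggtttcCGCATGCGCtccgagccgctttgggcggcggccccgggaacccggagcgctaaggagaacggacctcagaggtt

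SDHA is shown because it had the lowest adjusted p of complex II and holds 4 matches to the looser NRF1 form, each on both strands and so 10 bases long in capitals. The stretch is chr5:218070-218319, plus strand. In GENCODE the gene begins at 218241, inside this stretch.
SDHA: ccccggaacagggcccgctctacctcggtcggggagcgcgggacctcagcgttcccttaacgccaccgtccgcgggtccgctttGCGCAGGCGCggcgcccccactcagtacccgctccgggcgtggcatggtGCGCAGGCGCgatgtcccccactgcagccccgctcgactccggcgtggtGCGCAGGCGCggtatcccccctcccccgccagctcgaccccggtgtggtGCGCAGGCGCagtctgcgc

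UQCRH (chr1:46303448-46303697) and COX8A (chr11:63974370-63974619) are both on the plus strand. They carry the ETS core on the minus strand, in capitals, starting 46 and 18 bases before the RefSeq start. In GENCODE UQCRH begins at 46303631, so there its ETS core lies inside the gene. COX8A had the lowest adjusted p of complex IV. In complex III that was UQCRC2, whose window held none of the motifs, so UQCRH does not follow that rule.
UQCRH: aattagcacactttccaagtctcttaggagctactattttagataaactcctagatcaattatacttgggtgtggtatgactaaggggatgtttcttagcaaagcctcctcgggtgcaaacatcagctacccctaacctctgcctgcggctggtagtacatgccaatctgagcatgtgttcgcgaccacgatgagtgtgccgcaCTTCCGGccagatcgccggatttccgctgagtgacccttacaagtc
COX8A: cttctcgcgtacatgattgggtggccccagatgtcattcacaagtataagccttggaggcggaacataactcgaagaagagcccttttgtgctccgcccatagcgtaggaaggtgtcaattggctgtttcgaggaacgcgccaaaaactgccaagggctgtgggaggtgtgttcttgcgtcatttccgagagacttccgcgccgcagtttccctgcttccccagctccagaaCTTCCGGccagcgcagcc

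The last pair holds none of the 4 motifs before the RefSeq start. It is shown because ATP5MC1 had the most negative fold change of all members and NDUFS4 was the one member called higher. ATP5MC1 lies at chr17:48892537-48892786 and NDUFS4 at chr5:53560389-53560638, both on the plus strand. NDUFS4 has a YY1 core that begins 22 bases after its start, outside the printed stretch.
ATP5MC1: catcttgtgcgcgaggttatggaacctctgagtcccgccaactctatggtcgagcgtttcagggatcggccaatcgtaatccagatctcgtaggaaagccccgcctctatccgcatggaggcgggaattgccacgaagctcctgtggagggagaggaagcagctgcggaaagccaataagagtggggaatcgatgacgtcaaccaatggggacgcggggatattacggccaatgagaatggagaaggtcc
NDUFS4: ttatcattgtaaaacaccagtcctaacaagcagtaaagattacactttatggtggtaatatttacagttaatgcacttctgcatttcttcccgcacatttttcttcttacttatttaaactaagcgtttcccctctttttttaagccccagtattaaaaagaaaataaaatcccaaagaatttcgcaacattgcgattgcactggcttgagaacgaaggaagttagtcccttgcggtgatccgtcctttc

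Among the promoter windows, 37 of 55 genes that were called lower in the authors' deposited table of shCTRL V (67.3%) and 6 of 12 that were not called or not tested held at least one of the motifs. These are counts of letters, not of bound sites.

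Levels differed widely between members when scaled to exon length. The mean over 9 libraries was highest for ATP5F1B, the catalytic beta subunit of ATP synthase, at 361 CPM per kilobase of exon. NDUFS5, a small accessory subunit of complex I, followed within its own complex at 219 CPM per kilobase, COX8A of complex IV at 179, UQCRH of complex III at 103 and SDHB of complex II at 43.4. The lowest detected members that passed the filter were COX6B2 at 0.471 CPM per kilobase in complex IV, NDUFA9 at 2.79 in complex I, UQCRHL at 3.38 in complex III, SDHC at 4.77 in complex II and ATP5MF-PTCD1 at 9.85 in complex V. Exon length joins all annotated exons of a gene, 10391 bases for NDUFA9 and 14160 for SDHC, so these ranks also depend on the annotation. In CPM, NDUFA7 at 8.32 to 17.2 was below NDUFA9 at 19.5 to 35.9. Over members that passed the filter, the median was 19.8 CPM per kilobase for complex I and 19 for complex II. It was 33.3 for complex III, 66.9 for complex IV and 29.7 for complex V. Complex IV had 11 such members of 16, and complex V 18 of 19.

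The 6 genes below the filter were 5 tissue isoforms of complex IV and ATP5MGL. COX6A2 and COX7A1, the heart and muscle isoforms, had 0 counts in all 9 libraries, so that a level of up to 3 counts, which is 0.0504 to 0.0982 CPM by library, cannot be told from absence by counting error alone. COX4I2, the lung isoform, had at most 3 counts in a library. COX7B2 had 1 count in all, and COX8C, known from testis, had at most 6. Their common counterparts COX4I1, COX6A1, COX7A2, COX7B and COX8A were each at 48.8 CPM or more in every library. Of the tissue isoforms, COX6B2 alone passed the filter, at 0.632 to 2.75 CPM, beside 66.5 to 98.9 CPM for the common form COX6B1.

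Members as a group were lower in the shCTRL V columns. In the authors' deposited table of shCTRL V against shCTRL D, 68 of the 79 members with an adjusted p were lower, 1 was higher and 10 were not called, at an adjusted p below 0.05. Over all 24274 features of that table, 22.7% were called lower and 21.4% higher. The median log2 fold change of the members in the authors' deposited table was -0.49, beside -0.00 over all features tested. In bulk RNA, fewer cells of a type and less RNA per cell cannot be told apart. Without UQCRHL and ATP5MF-PTCD1 the authors' deposited table had 66 of 77 lower and 1 higher. A fall of at least 1.5-fold was called for 29 of the 79 members in the authors' deposited table, a larger share than the 13.3% of all features. One of at least 2-fold was called for 4 of the 79, a smaller share than the 7.14% of all features.

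The counts show the same shift library by library. Summed over all 85 genes, the shCTRL V columns held 5860, 5860 and 5810 CPM, the shDAT D columns 8120, 8350 and 8760 CPM, and the shCTRL D columns 8350, 8260 and 8520 CPM. The 3 shCTRL V columns lay below the other 6 with no overlap. Members took between 0.568% and 0.576% of all counts in the shCTRL V columns, 0.832% to 0.884% in the shDAT D columns and 0.814% to 0.879% in the shCTRL D columns. Gene by gene, all 3 shCTRL V columns were below all other 6 libraries for 66 of 79 members, beside 26.0% of all features, and above them for 1 member, beside 28.2%. Within a table group the members varied little: the median range over 3 libraries was 7.51% of the mean in the shCTRL V columns, 9.22% in the shDAT D columns and 9.08% in the shCTRL D columns. Under the labels the corresponding range was 33.8% in shSLC6A3 DMSO, 37.0% in shCTRL VXN and 31.3% in shCTRL DMSO. shCTRL VXN replicate 3 was the lowest of its labelled group for 76 of 79 members, shSLC6A3 DMSO replicate 1 for 74 and shCTRL DMSO replicate 3 for 71.

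**Figure D1:**
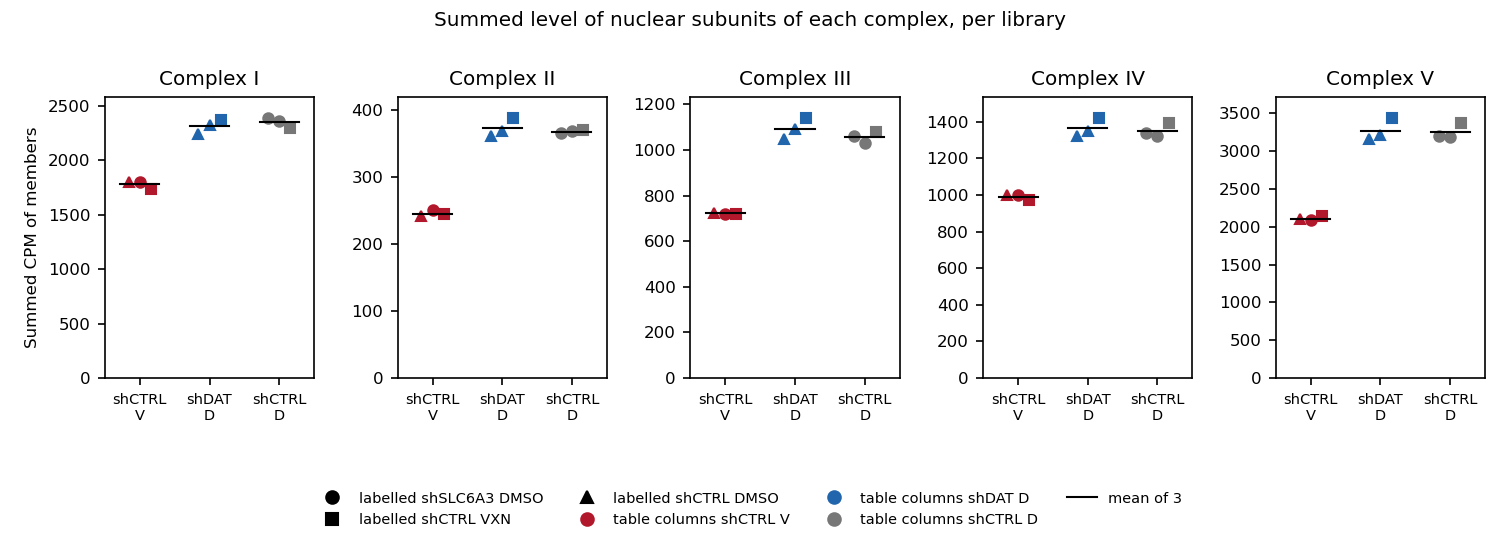
Summed CPM (vertical axis, from 0) of the members of each complex in the 9 libraries, by table columns (colour) and by label (shape), with the mean of 3 as a line. In every complex the shCTRL V columns lie below the other 6 libraries; in complex V they sum to 2100, 2090 and 2140 CPM, against 3160 to 3440 CPM elsewhere.

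Other measures moved with the same columns. MKI67, a marker of dividing cells, was at 74.4, 73.7 and 62.2 CPM in the shCTRL V columns, against 519 to 611 CPM in the other 6 libraries, and TOP2A was at 52.3, 50.1 and 43.8 CPM, against 218 to 275 CPM. Of the 6 epithelial markers, CDH1 was higher there, at 218, 212 and 235 CPM, against 101 to 108 CPM. The other 5 had deposited log2 fold changes between -0.18 for EPCAM and CDX2 and 0.16 for KRT18 in the authors' deposited table, and none of the 5 was called. The share of counts from all genes of mitochondrial DNA did not set the shCTRL V columns apart from the other 6 libraries. It was 5.4% to 6.28% in the shCTRL V columns, 6.05% to 6.96% in the shDAT D columns and 5.26% to 5.45% in the shCTRL D columns. Each shDAT D column was above each shCTRL D column. The summed CPM of the mitochondrially encoded subunits alone, given further below, was lower in the shCTRL V columns than in the other 6 libraries. Whether fewer cells were dividing, and what part that had in the lower levels of the members, was not tested.

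**Figure D2:**
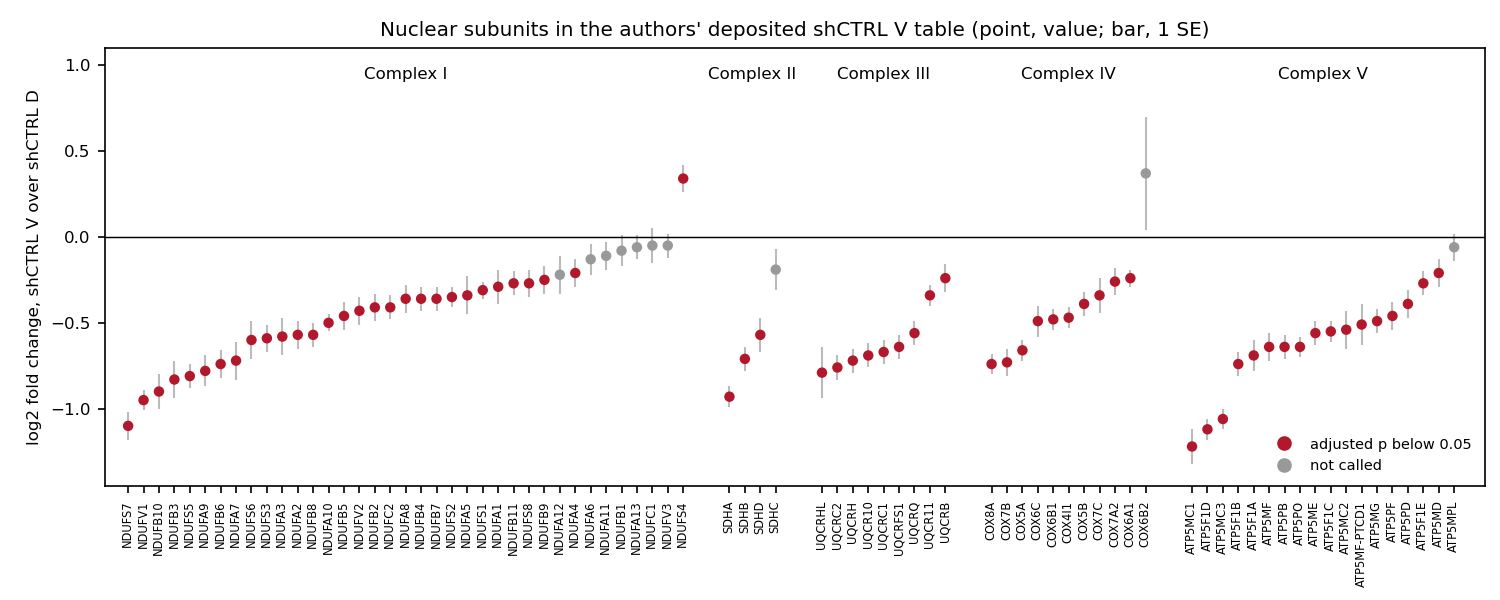
Log2 fold change of shCTRL V over shCTRL D (vertical axis) for the 79 members with an adjusted p in the authors' deposited table, ordered within each complex; points are the deposited values, bars 1 standard error, red points adjusted p below 0.05. Red points run from -1.22 for ATP5MC1 to 0.34 for NDUFS4, the only red point above 0.

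Complex I had 29 lower members, 1 higher and 7 not called among 37 in the authors' deposited table, with a median log2 fold change of -0.36. All 7 core subunits, which carry the electron path, were lower there, with a median of -0.43, and so were 22 of 30 accessory subunits, with a median of -0.36. NDUFV1, the subunit that binds NADH and FMN (ENSG00000167792.13, GRCh38 chromosome 11, 67605653 to 67612554, plus strand), was at 60.1, 63.0 and 63.4 CPM in the shCTRL V columns, 116, 121 and 121 CPM in the shDAT D columns, and 116, 116 and 125 CPM in the shCTRL D columns. The shCTRL V columns stood apart, and the authors' deposited table gave a log2 fold change of -0.95 (SE 0.06, adjusted p = 2.47e-62). NDUFS7, which holds the last iron-sulfur cluster before ubiquinone (ENSG00000115286.20, chromosome 19, 1383527 to 1395589, plus strand), was at 20.2, 19.7 and 21.3 CPM in the shCTRL V columns, 42.5, 41.7 and 44.4 CPM in the shDAT D columns, and 40.4, 42.4 and 47.4 CPM in the shCTRL D columns. Its 3 lowest libraries were again the shCTRL V columns, and its level was 0.465 times that of shCTRL D in the authors' deposited table (log2 fold change -1.10, SE 0.08, adjusted p = 1.46e-41). Among accessory subunits, NDUFS5 was at 83.7, 84.7 and 73.0 CPM in the shCTRL V columns, 138, 143 and 140 CPM in the shDAT D columns, and 141, 137 and 140 CPM in the shCTRL D columns. The shCTRL V columns of NDUFS5 were its 3 lowest. NDUFS5 changed by a log2 value of -0.81 (SE 0.07, adjusted p = 9.31e-31) in the authors' deposited table, and NDUFA9, an accessory subunit near the ubiquinone site, by -0.78 (SE 0.09, adjusted p = 7.76e-18). NDUFA9 was at 19.5, 19.5 and 21.5 CPM in the shCTRL V columns, 31.1, 31.0 and 35.9 CPM in the shDAT D columns, and 33.6, 34.8 and 33.9 CPM in the shCTRL D columns.

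NDUFS4 went the other way. It encodes an accessory subunit beside the NADH-oxidising arm, and its loss is known from Leigh syndrome. Its level was 56.3, 58.5 and 56.8 CPM in the shCTRL V columns, 40.0, 44.8 and 42.5 CPM in the shDAT D columns, and 46.6, 45.6 and 40.6 CPM in the shCTRL D columns. The lowest shCTRL V column was above the highest of the other 6 libraries, and the authors' deposited table gave a log2 fold change of 0.34 (SE 0.08, adjusted p = 1.59e-04). NDUFS4 (ENSG00000164258.12) lies on GRCh38 chromosome 5, 53560633 to 53683340, plus strand. The 7 complex I genes not called were NDUFA6, NDUFA11, NDUFA12, NDUFA13, NDUFB1, NDUFC1 and NDUFV3, with log2 fold changes between -0.22 and -0.05 in the authors' deposited table.

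In complex II, which also works in the citrate cycle, 3 of 4 members were lower in the authors' deposited table. SDHA, the flavoprotein that oxidises succinate (ENSG00000073578.17, chromosome 5, 218241 to 256700, plus strand), was at 41.4, 43.2 and 42.3 CPM in the shCTRL V columns, 87.6, 86.9 and 83.7 CPM in the shDAT D columns, and 76.6, 79.0 and 83.8 CPM in the shCTRL D columns. The shCTRL V columns of SDHA were its 3 lowest, apart from the rest, while the shDAT D and shCTRL D columns overlapped. SDHA had a log2 fold change of -0.93 (SE 0.06, adjusted p = 1.94e-54) in the authors' deposited table. SDHB, the iron-sulfur subunit, was at 74.3, 77.4 and 78.3 CPM in the shCTRL V columns, 113, 122 and 126 CPM in the shDAT D columns, and 127, 126 and 117 CPM in the shCTRL D columns. SDHD, a membrane anchor, was at 68.2, 68.0 and 56.0 CPM in the shCTRL V columns, 97.1, 92.1 and 97.5 CPM in the shDAT D columns, and 96.5, 99.5 and 86.1 CPM in the shCTRL D columns. Neither gene's shCTRL V columns reached the other 6 libraries. SDHB changed by -0.71 (SE 0.07, adjusted p = 1.37e-21) and SDHD by -0.57 (SE 0.10, adjusted p = 2.37e-08) in the authors' deposited table. The other anchor, SDHC, was at 57.8, 61.2 and 67.8 CPM in the shCTRL V columns, 63.6, 66.7 and 80.7 CPM in the shDAT D columns, and 65.0, 63.1 and 82.6 CPM in the shCTRL D columns. Those values overlapped, and SDHC was not called in the authors' deposited table (-0.19, SE 0.12, adjusted p = 0.198).

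All 9 members of complex III were lower in the authors' deposited table, at log2 fold changes between -0.79 and -0.24 and a median of -0.67. UQCRC2, a core protein of the matrix arm (ENSG00000140740.11, chromosome 16, 21952660 to 21983660, plus strand), was at 114, 116 and 114 CPM in the shCTRL V columns, 201, 217 and 224 CPM in the shDAT D columns, and 185, 181 and 213 CPM in the shCTRL D columns. The shCTRL V columns differed from each other by less than from any other library, and the deposited log2 fold change in the authors' deposited table was -0.76 (SE 0.07, adjusted p = 1.16e-24). UQCRH, the hinge protein beside cytochrome c1, was at 101, 96.7 and 104 CPM in the shCTRL V columns, 164, 172 and 183 CPM in the shDAT D columns, and 159, 155 and 174 CPM in the shCTRL D columns. UQCR10, a small subunit, was at 39.8, 42.7 and 36.9 CPM in the shCTRL V columns, 64.1, 67.4 and 66.1 CPM in the shDAT D columns, and 64.4, 62.4 and 63.7 CPM in the shCTRL D columns. Both genes were lowest in the shCTRL V columns. UQCRH changed by -0.72 (SE 0.07, adjusted p = 1.26e-23) and UQCR10 by -0.69 (SE 0.07, adjusted p = 1.97e-22) in the authors' deposited table. UQCRFS1, the Rieske iron-sulfur protein, had -0.64 and UQCRHL, the uncertain copy, -0.79 in the authors' deposited table. UQCRHL was at 5.22, 5.45 and 4.26 CPM in the shCTRL V columns, 8.60, 9.51 and 7.57 CPM in the shDAT D columns, and 9.45, 8.85 and 7.49 CPM in the shCTRL D columns.

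Complex IV had 10 lower members and 1 not called in the authors' deposited table, and the 10 are its common isoforms, with a median of -0.48. COX8A, a small membrane subunit (ENSG00000176340.4, chromosome 11, 63974607 to 63976543, plus strand), was at 66.7, 64.1 and 64.3 CPM in the shCTRL V columns, 99.4, 100 and 102 CPM in the shDAT D columns, and 103, 104 and 115 CPM in the shCTRL D columns. All 3 shCTRL V columns were below the other 6 libraries, and the authors' deposited table gave -0.74 (SE 0.06, adjusted p = 9.58e-35). COX5A, a subunit on the matrix side, was at 82, 83.4 and 81.6 CPM in the shCTRL V columns, 121, 127 and 128 CPM in the shDAT D columns, and 128, 131 and 127 CPM in the shCTRL D columns. COX7B, a small membrane subunit, was at 57.9, 57.5 and 48.8 CPM in the shCTRL V columns, 91.0, 93.2 and 94.6 CPM in the shDAT D columns, and 91.3, 87.9 and 90.1 CPM in the shCTRL D columns. For both genes the shCTRL V columns lay below the other 6 libraries, and the shDAT D and shCTRL D columns overlapped. COX5A changed by -0.66 (SE 0.06, adjusted p = 4.81e-32) and COX7B by -0.73 (SE 0.08, adjusted p = 1.79e-20) in the authors' deposited table. COX4I1, the largest of the nuclear subunits of complex IV, had -0.47, COX6B1 -0.48, COX7A2 -0.26 and COX6A1 -0.24 in the authors' deposited table, and all were called. COX6A1, with the lesser change, was at 91.0, 90.9 and 93.2 CPM in the shCTRL V columns, 98.8, 97.4 and 104 CPM in the shDAT D columns, and 107, 105 and 108 CPM in the shCTRL D columns. The testis isoform COX6B2 was at 1.38, 1.85 and 1.96 CPM in the shCTRL V columns, 2.37, 2.28 and 2.75 CPM in the shDAT D columns, and 0.807, 0.632 and 2.14 CPM in the shCTRL D columns. The shCTRL D columns of COX6B2 spread over a wider range than those of its shCTRL V columns, and the gene was not called in the authors' deposited table (0.37, SE 0.33, adjusted p = 0.273).

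Complex V had 17 members lower and 1 not called in the authors' deposited table. It held 3 of the 4 members that fell at least 2-fold, a fall no more common among all members than over all features (7.14%). ATP5MC1, ATP5MC2 and ATP5MC3 encode the same mature c subunit of the rotor ring with different import sequences, and these 3 genes had a median of -1.06 in the authors' deposited table. ATP5MC1 (ENSG00000159199.14, chromosome 17, 48892765 to 48895871, plus strand) was at 31.4, 31.2 and 25.2 CPM in the shCTRL V columns, 69.5, 64.6 and 72.4 CPM in the shDAT D columns, and 66.1, 64.9 and 72.0 CPM in the shCTRL D columns. ATP5MC3 was at 90.3, 90.0 and 92.3 CPM in the shCTRL V columns, 187, 189 and 198 CPM in the shDAT D columns, and 181, 180 and 199 CPM in the shCTRL D columns. Both stood apart without overlap, at log2 fold changes of -1.22 (SE 0.10, adjusted p = 7.63e-36) for ATP5MC1 and -1.06 (SE 0.06, adjusted p = 5.72e-73) for ATP5MC3 in the authors' deposited table. ATP5MC2 was at 63.2, 62.6 and 55.6 CPM in the shCTRL V columns, 96.2, 95.6 and 98.2 CPM in the shDAT D columns, and 78.9, 78.3 and 106 CPM in the shCTRL D columns. The shCTRL V columns of ATP5MC2 lay below the rest, with a change of -0.54 (SE 0.11, adjusted p = 2.08e-06) in the authors' deposited table.

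ATP5F1D, the delta subunit of the central stalk (ENSG00000099624.8, chromosome 19, 1241746 to 1244826, plus strand), had the lowest adjusted p of all members. It was at 59.2, 58.3 and 61.9 CPM in the shCTRL V columns, 119, 119 and 127 CPM in the shDAT D columns, and 130, 127 and 127 CPM in the shCTRL D columns. ATP5F1D was at 0.460 times the shCTRL D level in the authors' deposited table (log2 fold change -1.12, SE 0.06, adjusted p = 5.87e-75). Around it, the 5 genes of the catalytic F1 part had a median of -0.69 and the 4 of the peripheral stalk a median of -0.55 in the authors' deposited table. ATP5F1B was at 574, 571 and 611 CPM in the shCTRL V columns, 943, 944 and 1020 CPM in the shDAT D columns, and 928, 927 and 1030 CPM in the shCTRL D columns. Its log2 fold change in the authors' deposited table was -0.74 (SE 0.07, adjusted p = 4.74e-28). ATP5MD was at 101, 96.1 and 96.7 CPM in the shCTRL V columns, 93.1, 99.8 and 112 CPM in the shDAT D columns, and 115, 113 and 107 CPM in the shCTRL D columns, so its shCTRL V columns overlapped with shDAT D. Of the small membrane subunits, ATP5MD had -0.21 (SE 0.08, adjusted p = 0.024) and ATP5MPL -0.06 (SE 0.08, adjusted p = 0.587) in the authors' deposited table. ATP5MD and ATP5MPL are older symbols of ATP5MK and ATP5MJ.

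**Figure D3:**
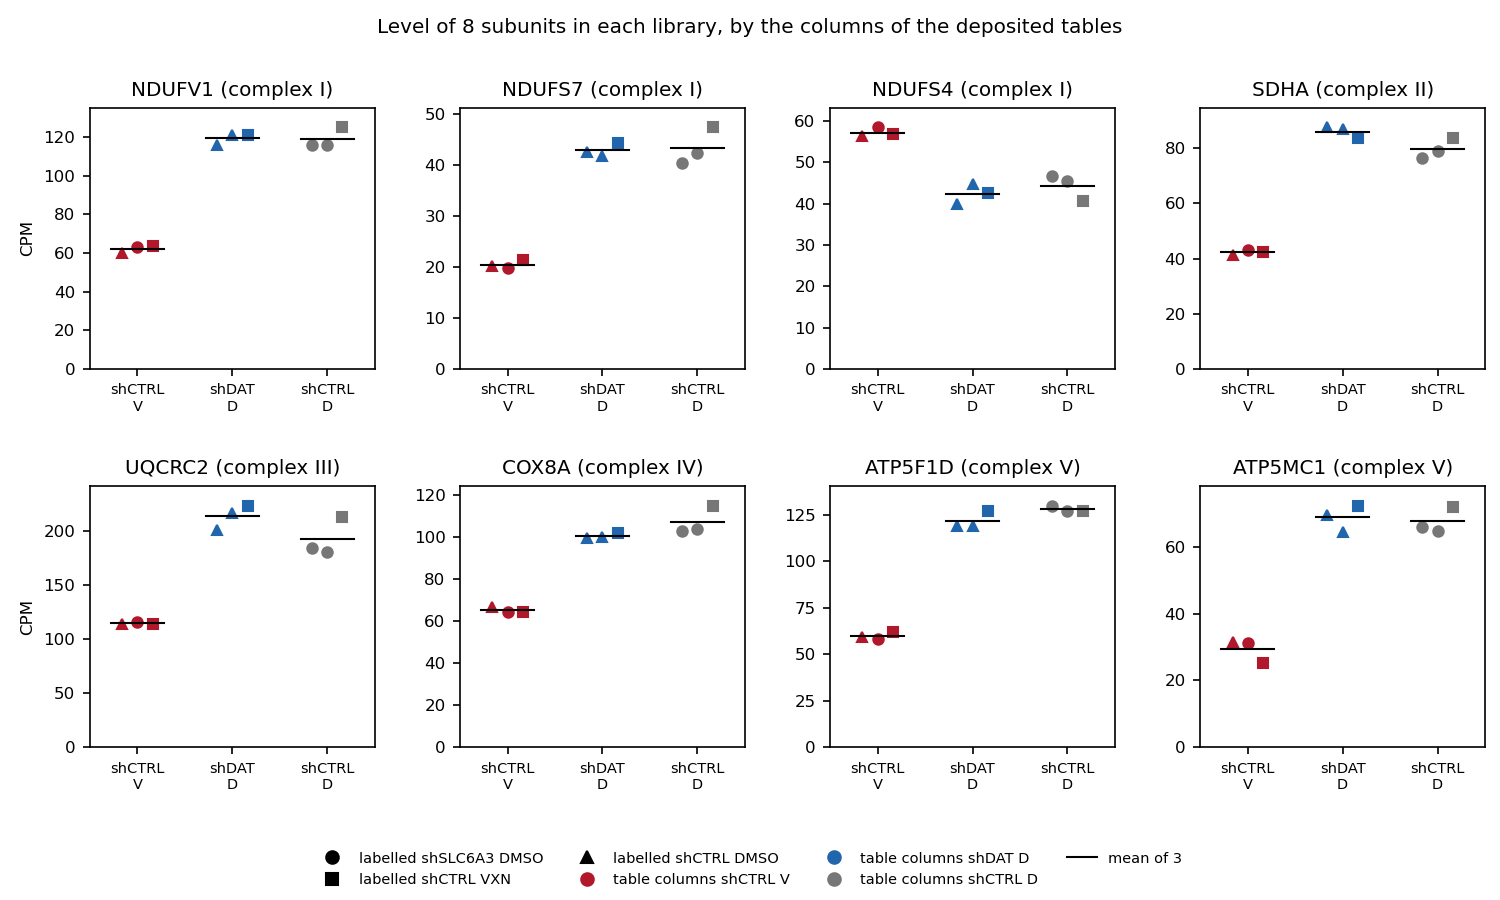
CPM (vertical axis, from 0) of 8 subunits in each library, by table columns (colour) and label (shape), with the mean of 3 as a line. For 7 of the genes the shCTRL V columns are the 3 lowest libraries, and for NDUFS4 they are the 3 highest, at 56.3 to 58.5 CPM.

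Genes that work with the subunits were read from lists given by name. Beside the counts of each list, 22.7% of all 24274 features of the authors' deposited table of shCTRL V were called lower and 21.4% higher. Assembly factors build the complexes. The authors' deposited table of shCTRL V against shCTRL D had 30 of 49 lower and 2 higher, with a median of -0.34. FOXRED1, a complex I assembly factor, was at 17, 17 and 14.7 CPM in the shCTRL V columns, 26.6, 28.7 and 26.5 CPM in the shDAT D columns, and 31.7, 29.9 and 28.5 CPM in the shCTRL D columns. FOXRED1 changed by -0.90 (SE 0.09, adjusted p = 5.82e-22), ECSIT by -0.71, LRPPRC, which stabilises mitochondrial messenger RNA, by -0.47 and ATPAF1 by -0.48 in the authors' deposited table. The 2 higher assembly factors were COX19, a copper-handling protein, at 0.67 and NDUFAF7, a complex I methyltransferase, at 0.35 in the authors' deposited table; both were named after their values were seen.

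Of 14 regulators of mitochondrial gene expression, 10 were lower, 3 were not called and 1, PPARGC1A, was too low for an adjusted p in the authors' deposited table. PPARGC1B, a coactivator of nuclear genes for mitochondria, had the largest change of the companion genes. Its level was 7.55, 6.58 and 7.40 CPM in the shCTRL V columns, 29.7, 28.6 and 27.7 CPM in the shDAT D columns, and 27.8, 29.6 and 30.2 CPM in the shCTRL D columns. The shCTRL V columns lay below the other 6 libraries, which overlapped among themselves, and the authors' deposited table gave -2.04 (SE 0.09, adjusted p = 1.81e-112). POLRMT, the mitochondrial RNA polymerase, changed by -0.77, the related coactivator PPRC1 by -0.54 and NRF1 by -0.55 in the authors' deposited table. GABPA had 0.08 (adjusted p = 0.376) there and was not called in the authors' deposited table.

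The symbol rule leaves out 8 respiratory chain proteins of the lists. Of these, 4 were lower and 2 were higher in the authors' deposited table, and their median was -0.19. CYC1, the cytochrome c1 of complex III, was at 117, 121 and 122 CPM in the shCTRL V columns, 250, 241 and 258 CPM in the shDAT D columns, and 249, 253 and 264 CPM in the shCTRL D columns, with a log2 fold change of -1.11 (SE 0.05, adjusted p = 1.01e-92) in the authors' deposited table. COX7A2L, a factor that joins complexes III and IV, was at 120, 120 and 115 CPM in the shCTRL V columns, 67.6, 73.2 and 78.3 CPM in the shDAT D columns, and 73.4, 69.0 and 70.6 CPM in the shCTRL D columns. It was higher in each shCTRL V column than in any other library, at 0.70 (SE 0.07, adjusted p = 2.43e-22) in the authors' deposited table. NDUFAB1, the acyl carrier protein of complex I, had -0.65, and NDUFA4L2, a low-level relative of NDUFA4, had 1.33 (SE 0.31, adjusted p = 1.16e-05) in the authors' deposited table.

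Mitochondrially encoded subunits did not move as one. The authors' deposited table had 5 of 13 lower, 1 higher and 7 not called, and their median was -0.16. Summed over the 13, they were at 43400, 43500 and 35800 CPM in the shCTRL V columns. The sums were 53900, 53900 and 61600 CPM in the shDAT D columns and 48500, 49500 and 45600 CPM in the shCTRL D columns. All shCTRL V sums thus lay below those of the other libraries. MT-CO2, a core subunit of complex IV, was at 2950, 2940 and 2370 CPM in the shCTRL V columns, 6520, 6340 and 6970 CPM in the shDAT D columns, and 4050, 4090 and 5250 CPM in the shCTRL D columns. MT-CO2 changed by -0.69 (SE 0.11, adjusted p = 1.34e-09), MT-CO3 by -0.50, MT-ND4 by -0.55 and MT-ND3 by 0.38 in the authors' deposited table. Of 13 citrate cycle enzymes, the authors' deposited table had 10 lower and 1 higher and a median of -0.51. FH, fumarase, had -1.28, MDH2 -0.83, CS, citrate synthase, -0.80 and IDH3B -0.67, and the higher enzyme was OGDH at 0.45 in the authors' deposited table, named after its value was seen.

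**Figure D4:**
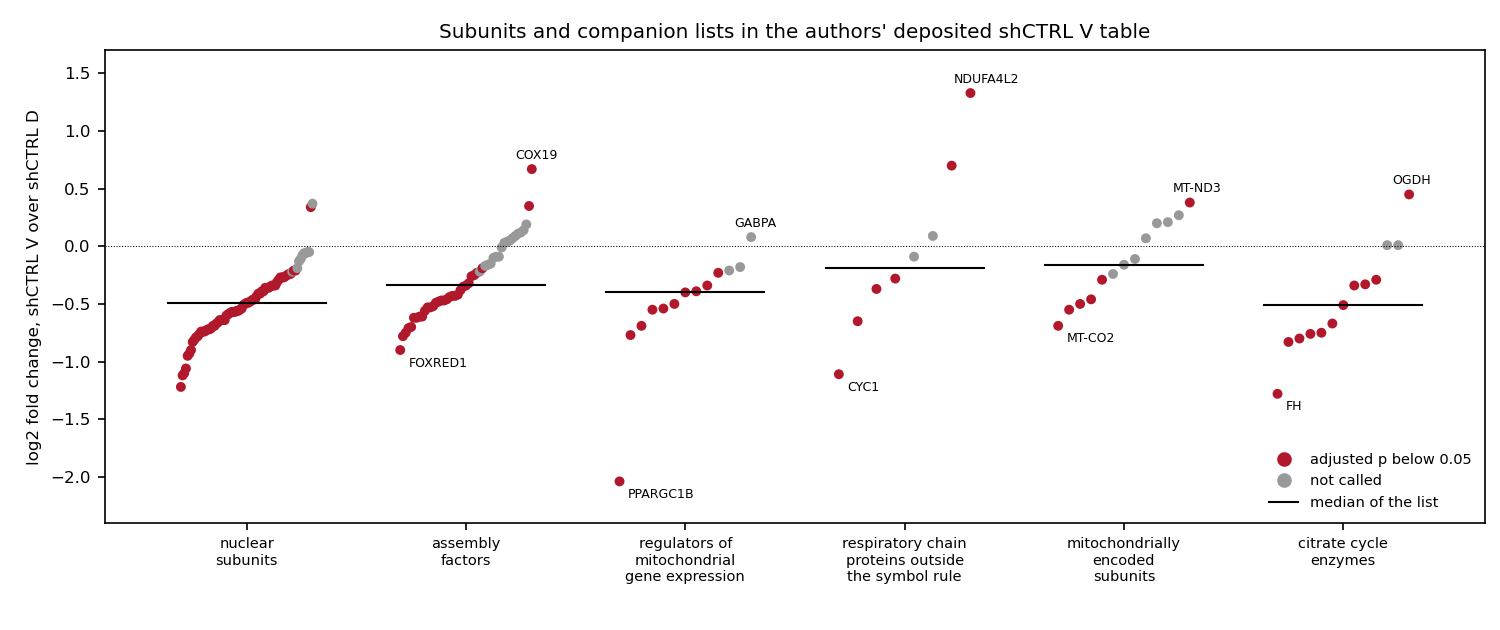
Log2 fold change of shCTRL V over shCTRL D in the authors' deposited table (vertical axis) for the nuclear subunits and 5 companion lists; red points have an adjusted p below 0.05 and lines are list medians. The subunits' median of -0.49 lies near that of the citrate cycle enzymes (-0.51), and PPARGC1B is the lowest point at -2.04.

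No member was called in the authors' deposited table of shDAT D against shCTRL D, made with DESeq2, in either direction. There, 77 members had an adjusted p, with log2 fold changes between -0.11 and 0.09. These deposited values were often smaller in size than those of a DESeq2 rerun on the same columns. NDUFS6 had -0.20 in the rerun against -0.11, and NDUFB4 0.12 against 0.09. Of 10403 features, 1.0% were called higher and 5.62% lower, or 6.62% in either direction. Both tables share the shCTRL D columns, so their values are not independent. The member median was -0.02, beside -0.04 over all features in the authors' deposited table, and 22 of the 77 were positive. In edgeR fits of the same columns the member median followed that of all features and took its sign from the scaling. It was 0.0 beside 0.006 with TMM factors, -0.016 beside -0.013 with RLE factors, 0.042 beside 0.046 with upper-quartile scaling and 0.027 beside 0.032 with library totals. At an unadjusted p below 0.05 the authors' deposited table held 3 of 83 members and an edgeR fit of the same columns 2 of 79. None was called after adjustment. The share of all features at that threshold was not computed, so these counts cannot be set against it. The lowest adjusted p-values in the authors' deposited table belonged to COX6A1 (-0.10, adjusted p = 0.129), COX8A (-0.10, adjusted p = 0.141) and ATP5MD (-0.11, adjusted p = 0.167).

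The shCTRL D columns were uneven, and the count of 0 rested on 1 of them. shCTRL VXN replicate 2 differed from the other 2 for several members: NDUFS6, an accessory subunit that binds zinc, was at 66.5, 65.1 and 52.0 CPM in the shCTRL D columns, and ATP5MC2 at 78.9, 78.3 and 106 CPM. In a DESeq2 rerun without shCTRL VXN replicate 2, 3 members were higher and 13 lower in the shDAT D columns, where 14.8% and 22.7% of 21018 features were called. COX6B2 was higher by 1.72 (SE 0.28, DESeq2 adjusted p = 5.33e-09), ATP5MC2 by 0.26 and UQCRC2 by 0.19, and NDUFS6 had -0.31 (SE 0.07, DESeq2 adjusted p = 3.08e-05). The DESeq2 rerun with all libraries gave 1.03, 0.12, 0.12 and -0.20 for these genes in the same order. Their deposited log2 fold changes were 0.58, 0.05, 0.09 and -0.11, so part of the difference from the deposited values came without leaving out a library. The members' shares were at or below those of all features in either direction. In the authors' deposited table of shDAT D, 3 of 47 assembly factors were lower, BCS1L (-0.34), NDUFAF8 (-0.28) and SURF1 (-0.19). Of 13 citrate cycle enzymes 1 was lower there, CS (-0.19), beside 5.62% of all features. Of 13 mitochondrially encoded subunits 3 were higher there, MT-CO2 (0.52), MT-CO1 (0.39) and MT-CO3 (0.26), beside 1.0% of all features.

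Under the labels, the series asks what knockdown of the dopamine transporter and what VXN do to HCT116 cells. No member was called higher or lower in shSLC6A3 DMSO against shCTRL DMSO by edgeR's quasi-likelihood test, where 0.0% of 20402 features were called, nor by DESeq2. At an unadjusted p below 0.05 edgeR held 0 of 79 members, beside 4.56% of all features, and DESeq2 1 of 83. For shCTRL VXN against shCTRL DMSO edgeR called 0 members, beside 0.0098% of all features, and DESeq2 called 0, beside 0.0323% of features higher and 0.0323% lower, or 0.0646% in all. At an unadjusted p below 0.05 edgeR held 1 of 79 members, beside 1.88% of all features, and DESeq2 held 2 of 83. For the unadjusted DESeq2 counts no share of all features was computed. Median log2 changes over the 79 members were 0.02 for shSLC6A3 DMSO and 0.03 for shCTRL VXN, beside -0.01 and 0.00 over all features. NDUFV1 averaged 98.2 ± 30.5 CPM in shSLC6A3 DMSO, 103 ± 34.5 CPM in shCTRL VXN and 99.2 ± 33.9 CPM in shCTRL DMSO (SD, n = 3 each). The differences between these means were smaller than any of the SDs, and each labelled group holds 1 low library.

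SDHC was the one member with an unadjusted edgeR p below 0.05 in shCTRL VXN. It was at 80.7, 82.6 and 67.8 CPM in shCTRL VXN replicates 1 to 3, against 63.6, 66.7 and 57.8 CPM in shCTRL DMSO, and the groups did not overlap. The means were 77.0 and 62.7 CPM, and the exact permutation test (two-sided) returned p = 0.1, the smallest that 3 libraries against 3 allow, with an edgeR adjusted p of 1.0. With the replicate number as a block in these 6 libraries, a fit chosen after seeing the data, SDHC was higher by 0.29 on the log2 scale (SE 0.05, edgeR adjusted p = 0.00889). That fit rests on a pairing by number that neither the labels nor the data establish. SDHC was the only one of 79 members called under that block, where 0.602% of features were called higher and 0.435% lower. NDUFA11 and ATP5MPL also had all 3 shCTRL VXN libraries above all 3 shCTRL DMSO libraries, so 3 of 79 members did, beside 3.31% of all features, while 0 lay below, beside 3.03%. In shSLC6A3 DMSO, ATP5MPL alone was above shCTRL DMSO without overlap, beside 4.02% of all features, and no member was below it, beside 4.81%.

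Without the 3 libraries behind the shCTRL V columns, a choice made after seeing the data, 2 libraries remained in each labelled group. In shSLC6A3 DMSO against shCTRL DMSO, 18 members were then higher and 5 lower by edgeR, where 23.5% and 22.9% of 20769 features were called. The same libraries, with shCTRL VXN replicate 1 added, were compared in the opposite direction in the shDAT D rerun without shCTRL VXN replicate 2. These calls are therefore not independent of that rerun. The higher members were shifted by log2 values between 0.11 and 0.29. COX6B2 was lower, at 0.807 and 0.632 CPM in shSLC6A3 DMSO replicates 2 and 3, against 2.37 and 2.28 CPM in shCTRL DMSO replicates 1 and 2 (log2 fold change -1.67, SE 0.20, edgeR adjusted p = 1.37e-05). NDUFS6 was higher, at 66.5 and 65.1 CPM against 50.2 and 58.4 CPM in the same libraries (0.29, SE 0.06, edgeR adjusted p = 0.00164). ATP5MC2 was lower by edgeR at -0.28, SDHA at -0.16, UQCRC2 at -0.19 and NDUFB4, an accessory subunit, at -0.16. For shCTRL VXN against shCTRL DMSO, SDHC was the only member called, at 80.7 and 82.6 CPM in shCTRL VXN replicates 1 and 2 against 63.6 and 66.7 CPM in shCTRL DMSO (0.33, SE 0.04, edgeR adjusted p = 0.00647), where 0.323% of features were called higher and 0.246% lower. The exact permutation test over all 6 libraries gave p = 0.2 for COX6B2 in shSLC6A3 DMSO, with means of 1.1 and 2.01 CPM.

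**Figure D5:**
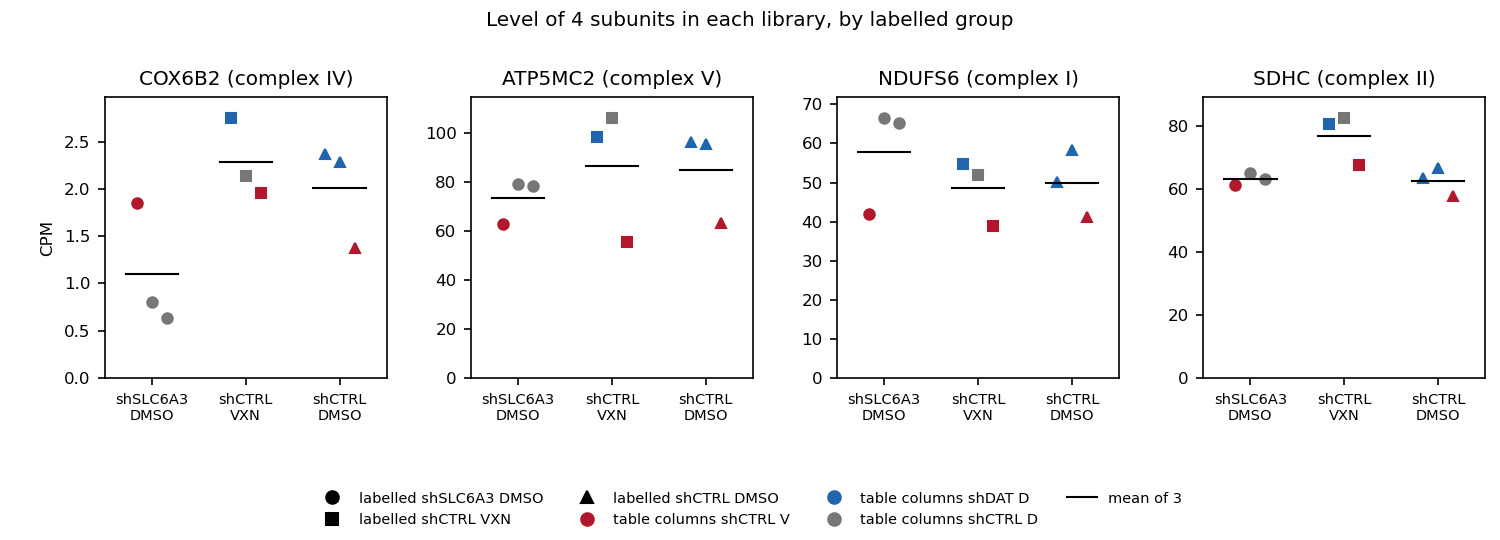
CPM (vertical axis, from 0) of 4 subunits in each library by labelled group (horizontal axis), with table columns as colours and the mean of 3 as a line. COX6B2 is lowest in shSLC6A3 DMSO replicates 2 and 3 (0.807 and 0.632 CPM), and SDHC is higher in all shCTRL VXN libraries than in any shCTRL DMSO library.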

How the data were processed

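Raw counts per gene and repeat subfamily were deposited by the authors for 9 libraries, with 0 columns of other samples. Per the labels' protocols, libraries came from total RNA with a Truseq RNA v2 kit. The submitters' processing notes name fastp 0.20.1, FastQC 0.11.9, STAR with GRCh38 and DESeq2 1.34.0; for the counting program, its strand setting and the annotation behind it the sources used here name nothing. The log2 fold changes, their standard errors (treated as a score) and the p-values were deposited by the authors in 2 tables, per the file headers, beside a base mean, a signal of normalised counts, that was not used for results. Deposited log2 values differed from a DESeq2 1.42.0 rerun by a median of 0.0068 for shCTRL V and 0.02 for shDAT D over the members. Among members with an adjusted p the largest difference was 0.15 for shCTRL V and 0.089 for shDAT D.

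Levels are CPM with TMM factors over 20402 features kept by edgeR's filterByExpr, and positions and exon lengths are from GENCODE release 29. Labelled groups were compared with edgeR 4.0.16 (R 4.3.3), quasi-likelihood, over all 9 libraries, with Benjamini-Hochberg adjustment over all features and a threshold of 0.05. The script was tested on simulated data. There all libraries of a group were drawn from the same mean. Each labelled group here holds a low library, so that test does not show which changes could be called in them. Deviations from the group means of same-numbered shCTRL VXN and shCTRL DMSO libraries correlated at 0.809, 0.844 and 0.943 across features. In both groups replicate 3 is a shCTRL V column, which alone could give such correlations, so they cannot show pairing. The labels name no shared source. Alternatives were DESeq2, other scalings, no filter, the replicate block, and leaving out libraries. In GENCODE, 47 members share exon bases with another gene, 26 on the same strand and 35 on the opposite one, among them COX8A, SDHD, NDUFV1 and NDUFS7, and without known strand use such reads cannot be told apart.

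The members, lists, tests and library trios were chosen with earlier results of these data known. Named genes are, per complex, the 3 lowest adjusted p-values in the shCTRL V table, members called against the majority, the highest and lowest level per exon length, the isoform sets, the 3 lowest adjusted p-values in the shDAT D table, and up to 4 genes per companion list. Other genes given with values were named after their values were seen.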

Additional observations from a re-analysis of the deposited data

How the results depend on the processing

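In the shCTRL V columns, the count of 68 lower members was 65 to 70 over edgeR with each scaling, edgeR without a filter, and DESeq2 reruns that left out each library. It was 29 at a minimum of 1.5-fold, where the count of higher members was 0. That count was 1 to 2 when leaving out 1 library each, with 2 without shCTRL VXN replicate 2, when COX6B2 (1.22) joined NDUFS4. The rerun with all libraries had COX6B2 at 0.52. ATP5MD lost its call under upper-quartile scaling (-0.16) and in 4 of the leave-one-out reruns. For the shDAT D columns, edgeR without a filter gave 1 higher member, COX6B2, and leaving out 1 library each gave 0 to 3 higher and 0 to 13 lower members, the highest counts without shCTRL VXN replicate 2. Without the 3 libraries behind the shCTRL V columns, shSLC6A3 DMSO had 18 higher and 5 lower members and shCTRL VXN 1 higher and 0 lower, against 0 in each with all libraries. The cause was not tested. With all other settings kept, DESeq2, the other scalings, no filter, a fit of only the groups compared and leaving out 1 library each gave 0 members in both directions of both labelled comparisons.

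With the replicate block in all 9 libraries, 0 members were called in either labelled comparison. With the block in shCTRL VXN and shCTRL DMSO alone, chosen after seeing the data, 1 member was higher, SDHC, and 0 were lower. Same-numbered shSLC6A3 DMSO and shCTRL DMSO libraries had correlations of -0.79, 0.778 and -0.796 for replicates 1 to 3. The shCTRL V column is replicate 1 in shSLC6A3 DMSO and replicate 3 in shCTRL DMSO, so these values cannot decide on pairing either. COX6B2 and the isoforms below the filter are limited by depth.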
